A study of Mus musculus with 10 samples.

Results

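A group of 10 genes of the cytokine-to-STAT relay were followed in mouse skin, chosen by symbol: the receptor chains Osmr, Il6st, Il4ra, Il22ra1 and Il20ra, the transcription factors Stat3 and Stat5a, and the feedback inhibitors Socs1, Socs2 and Socs3. All 10 of these symbols were found among the 55487 gene identifiers measured, and all 10 passed the filter on low counts. The series asked how overexpressing hepcidin, the peptide hormone that restricts iron export from cells, changes gene expression in skin. It holds skin from 5 mice per genotype by its design text: 5 libraries labelled Hamp1-KI ker (called KI here) and 5 labelled WT, each prepared with a stranded mRNA protocol from 250 ng of skin total RNA. The labels give no age, strain background or treatment, and do not spell out "ker" or the promoter that drives the knock-in. Titles carry the prefix EAS37 for 2 KI and 3 WT libraries (KI 1 and 2, WT 1, 2 and 3) and EAS42 for 3 KI and 2 WT libraries (KI 3, 4 and 5, WT 4 and 5); the labels do not say what the prefix stands for.

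Cytokines of the interleukin and oncostatin families bind paired receptor chains at the cell surface, which bring JAK kinases together; the kinases phosphorylate STAT proteins, which dimerise, enter the nucleus and switch on target genes. SOCS proteins are among those targets, and they feed back by blocking the receptor or the kinase, so the RNA of a SOCS gene commonly follows signalling through its pathway. In skin, STAT3 acts in keratinocytes during wound repair and psoriasis-like thickening, and interleukins of the IL-20 subfamily reach it through receptors that are mainly epithelial. RNA levels say nothing of STAT phosphorylation, which was not measured.

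The upstream sequences of 4 of the genes are given here because Stat3 and Socs3 had higher RNA and Il6st lower RNA in KI skin, while Il20ra held the most motif matches. They are the parts of the 250 bases before each RefSeq start site that lie outside annotated exons, read 5′ to 3′ on the gene's own strand in build GRCm38.p6. The Socs3 stretch is chr11:117969452-117969616 (minus strand, inside the wider GENCODE gene but outside its exons), the Stat3 stretch chr11:100939541-100939790 (minus), the Il6st stretch chr13:112463820-112464069 (plus) and the Il20ra stretch chr10:19712337-19712569 (plus). Capitals mark matches to TTCNNNGAA, the palindrome STAT dimers are known to bind, to TTCNNNNGAA, the longer spacing known for STAT6, or to TGANTCA, the AP-1 motif. Each motif reads the same on both strands.
Socs3: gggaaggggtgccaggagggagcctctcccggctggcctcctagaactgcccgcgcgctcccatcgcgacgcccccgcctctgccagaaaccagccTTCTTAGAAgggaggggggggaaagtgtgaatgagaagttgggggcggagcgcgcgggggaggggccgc
Stat3: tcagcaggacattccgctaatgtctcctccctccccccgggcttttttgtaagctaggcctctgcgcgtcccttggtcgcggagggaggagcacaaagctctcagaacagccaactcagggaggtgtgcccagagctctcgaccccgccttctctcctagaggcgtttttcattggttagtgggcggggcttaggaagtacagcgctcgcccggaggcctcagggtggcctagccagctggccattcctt
Il6st: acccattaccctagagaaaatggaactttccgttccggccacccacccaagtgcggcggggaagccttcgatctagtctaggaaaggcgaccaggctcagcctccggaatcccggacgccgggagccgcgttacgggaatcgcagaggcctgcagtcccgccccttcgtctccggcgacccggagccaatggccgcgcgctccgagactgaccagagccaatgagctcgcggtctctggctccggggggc
Il20ra: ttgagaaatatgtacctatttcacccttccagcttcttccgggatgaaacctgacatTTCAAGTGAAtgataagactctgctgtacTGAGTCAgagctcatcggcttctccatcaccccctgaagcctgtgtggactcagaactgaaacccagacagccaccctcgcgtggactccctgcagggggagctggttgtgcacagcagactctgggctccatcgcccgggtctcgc
RefSeq start-site windows were found for 9 of the 10 genes, 10 windows in all since Stat5a has 2, Socs2 being the gene without one. TTCNNNGAA occurred in 1 of the 10 windows, that of Socs3, where its first base lay 154 bases upstream; 7.02% of the 32851 windows in the RefSeq table held it. TTCNNNNGAA occurred only in the Il20ra window among the 10, 193 bases upstream, against 5.85% of all windows. TGANTCA occurred in the windows of Il20ra, 164 bases upstream, and Il22ra1, 222 bases upstream, against 6.75% of all windows. These are matches of letters in a short window and not measured binding sites, and most windows, that of Stat3 included, held none of the 3 motifs.

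The genotype labels were checked against Hamp, the hepcidin gene, which lay between 410.8 and 871.9 TPM (a level corrected for transcript length and library size) in KI skin, against 10.3 to 18.4 TPM in WT skin, a log2 fold change of 5.47 ± 0.26 (SE, n = 5 per genotype; edgeR adjusted p = 3.78e-06). Depth was even, at 18963438 to 26430328 expected counts per library. A change below means KI over WT from edgeR's quasi-likelihood test on those counts, on the log2 scale, called at a Benjamini-Hochberg adjusted p under 0.05 over all 17321 genes tested. That test called 30.9% of all genes, 15.6% higher and 15.3% lower in KI skin. Levels of other cell types moved with genotype: summed TPM of 7 T cell markers was 93.5 to 119.1 in KI skin and 39.1 to 66.7 in WT skin, of 7 adipocyte markers 512.4 to 1074 in KI and 1306 to 2247 in WT, and of 8 skeletal muscle markers 2045 to 23285 in KI and 22655 to 38187 in WT. Of the other marker lists, 2 of 8 epidermal and 3 of 7 macrophage and dendritic cell genes were called higher. Lower calls went to 6 of 7 endothelial and 3 of 7 fibroblast genes, and 0 of 8 muscle genes were called either way. Of 8 neutrophil genes 1 was testable, Cxcr2, which was higher, and Ly6g had 0 counts throughout. Cxcr2 passed the filter on low counts through its KI libraries, at 0.39 to 2.89 log2 CPM, against -3.48 to -1.91 in WT. Its call therefore rests on low WT counts. Beyond the covariate fits given below, the part of these cell types in the results was not tested. In bulk skin a change in the number of cells of a type and a change in RNA per cell cannot be told apart.

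Of the 10 genes, 4 were higher in KI skin (Osmr, Il4ra, Stat3 and Socs3), 2 were lower (Il6st and Socs2), and 4 did not pass the test (Il22ra1, Il20ra, Stat5a and Socs1). With 6 of 10 called, against 30.9% of all genes, the median change over the 10 genes was 0.20 on the log2 scale, against -0.01 over all tested genes. The values of the KI and WT libraries did not overlap for 4 of the 10 genes on CPM scaled by TMM factors, where 20.3% of all tested genes did not overlap. Osmr and Stat3 lay higher in KI, as 10.7% of all genes did, and Il6st and Socs2 lower, as 9.65% did. The same count in TPM was also 4 of 10, with Il4ra in place of Socs2. With the level of muscle, epidermal or adipocyte markers as a covariate (the mean log2 CPM of the list's genes, on which KI and WT libraries overlapped slightly for each list), 1, 1 and 0 of the 10 genes were called higher and 0 lower (Osmr was the gene that kept its call beside muscle or epidermis), and over all genes 306, 239 and 270 were called higher. Effects within titles come from a single fit to all 10 libraries with a KI effect for each prefix. By that fit 6 of the 10 were called in EAS37, against 35.8% of all genes, and 5 in EAS42, against 15.1%. Socs3 was called in EAS37 and not in EAS42. Values given for EAS37 alone or EAS42 alone come from a separate fit to that prefix's libraries, where some calls differed. Stat3, Osmr, Il6st and Il4ra kept their calls in every fit that left out 1 library. The 10 genes were picked with earlier results of these data known, so these counts describe the 10 genes and are not independent support for a direction.

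**Figure D1:**
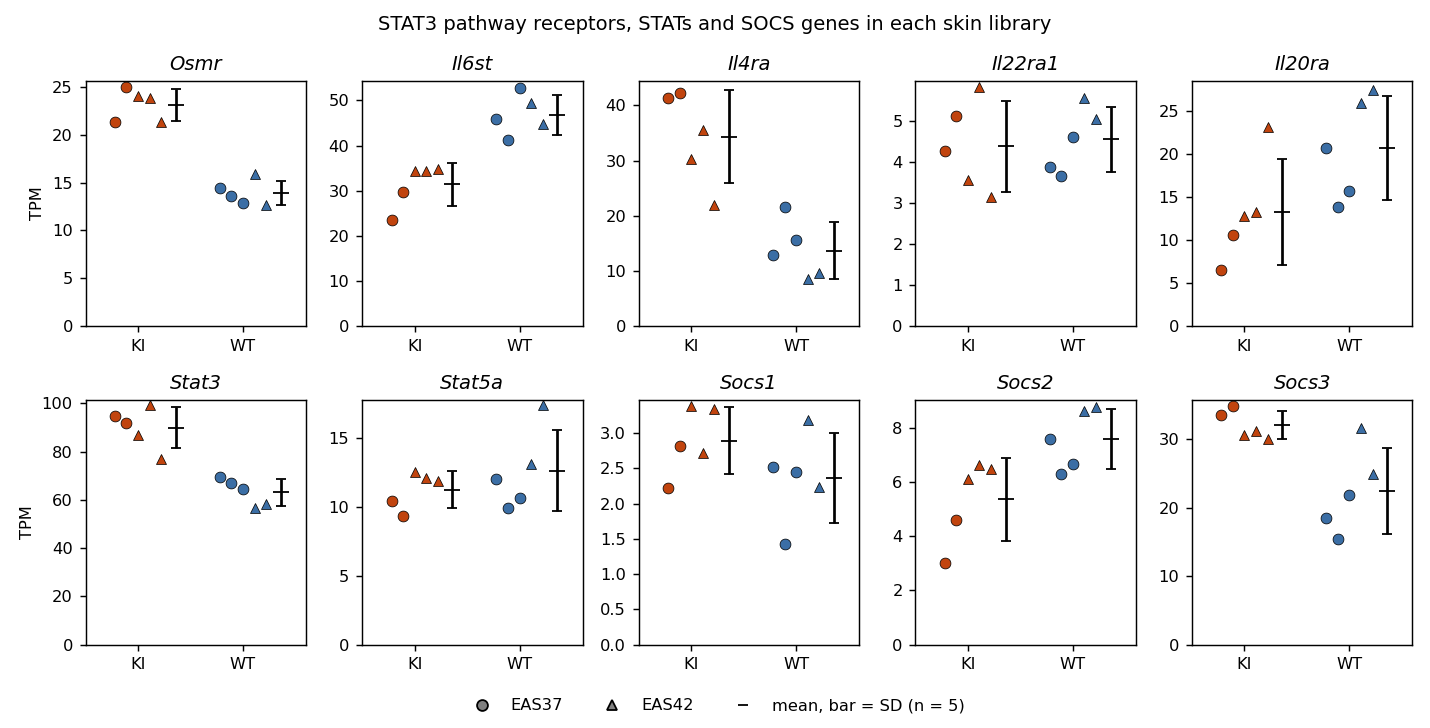
TPM of each of the 10 genes in every library (1 panel per gene, y axis in TPM from 0), KI left of WT, circles for titles with EAS37 and triangles for EAS42, bars for the mean and SD of 5 libraries. Osmr, Il4ra and Stat3 lie higher and Il6st lower in all 5 KI libraries than in any WT library, while the Socs3 panel shows 1 WT library, WT 4 at 31.6 TPM, inside the KI range.

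Among the receptors, Osmr and Il6st, the chains that together bind oncostatin M, moved in opposite directions. Osmr encodes the chain that pairs with gp130, the Il6st product, in that receptor (chr15:6813577-6874969, minus strand, ENSMUSG00000022146, in build GRCm38 like all gene coordinates here). It stood at 21.4, 25.0, 24.1, 23.9 and 21.3 TPM in KI libraries 1 to 5, against 14.4, 13.6, 12.9, 15.9 and 12.7 TPM in WT libraries 1 to 5. Every KI library was above every WT library, and the means were 23.1 ± 1.68 TPM in KI and 13.9 ± 1.28 TPM in WT (SD, n = 5 each). The log2 fold change was 0.79 ± 0.09 (SE; 95% interval 0.58 to 0.99; edgeR adjusted p = 5.08e-04). Within titles it was 0.95 in EAS37 and 0.62 in EAS42, and the difference between titles did not pass (edgeR adjusted p = 0.351).

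Il6st encodes gp130, the signal-transducing chain shared by the receptors for IL-6, IL-11, LIF, CLCF1 and oncostatin M (chr13:112464070-112510086, plus strand, ENSMUSG00000021756). Its TPM was 23.6, 29.6, 34.3, 34.4 and 34.9 in KI libraries 1 to 5, against 46.0, 41.2, 52.8, 49.4 and 44.8 in WT libraries 1 to 5. The highest KI library was below the lowest WT library. The change was -0.53 ± 0.09 (95% interval -0.72 to -0.33; edgeR adjusted p = 0.00257), with means of 31.4 ± 4.87 TPM in KI and 46.8 ± 4.46 TPM in WT (SD, n = 5 each). It was -0.67 in EAS37 and -0.46 in EAS42. The TPM of the fibroblast markers, summed over 7 genes, ran from 1296 to 3049 in KI and 2793 to 5996 in WT, and Il6st followed the mean log2 CPM of those genes within genotypes (r = 0.85 over 10 libraries, both scaled by the same depth); its part in the lower Il6st level was not tested.

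The ratio of the chains in TPM separated the genotypes. Osmr stood at 0.611 to 0.908 of the Il6st level in KI libraries and at 0.244 to 0.331 in WT libraries, with means of 0.751 ± 0.121 in KI and 0.299 ± 0.0353 in WT (SD, n = 5 each). Lifr, the LIF receptor chain that also pairs with gp130, did not itself pass the test (0.30, edgeR adjusted p = 0.124), although it was called higher in EAS42 alone (0.56, adjusted p = 0.0138) and stood at -0.06 in EAS37 alone. Its ratio to Il6st lay at 0.535 to 0.694 in KI and 0.278 to 0.428 in WT. These are ratios of RNA levels and not of receptors on cells.

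Il4ra encodes the chain shared by the IL-4 and IL-13 receptors (chr7:125552120-125579474, plus strand, ENSMUSG00000030748, with Gm44876 annotated on the other strand) and showed the largest change of the 10 genes. It had 41.3, 42.3, 30.3, 35.6 and 21.9 TPM in KI libraries 1 to 5, against 13.0, 21.6, 15.5, 8.61 and 9.60 TPM in WT libraries 1 to 5. The genotypes just failed to overlap in TPM, KI 5 being close to WT 2; in CPM the order of that pair turned, at 61.6 in KI 5 and 65.1 in WT 2. The change was 1.46 ± 0.30, or 2.74-fold (95% interval of the log2 value 0.79 to 2.13; edgeR adjusted p = 0.00694), and means were 34.3 ± 8.42 TPM in KI and 13.7 ± 5.21 TPM in WT (SD, n = 5 each). It was 1.55 in EAS37 and 1.69 in EAS42. Within genotypes Il4ra followed the mean log2 CPM of 7 hair matrix and shaft markers (r = 0.82 over 10 libraries). Those markers spanned 13.9 to 494.0 summed TPM in KI and 22.3 to 2453 in WT, with 0 of 7 called. KI 2 was highest within KI and WT 2 within WT. Their summed TPM was at least 92.2 in every EAS37 library and at most 25.0 in every EAS42 library. Il4ra was also higher in every EAS37 library than in any EAS42 library of the same genotype. The r therefore cannot be told apart from title prefix. With the mean log2 CPM of those markers as a covariate the Il4ra change was 1.76 (edgeR adjusted p = 2.66e-04). Without KI 2 and WT 2 it was 1.64 (edgeR adjusted p = 0.00508), both fits chosen after seeing the data. Il4ra was not called with the level of muscle (0.96, edgeR adjusted p = 0.203), epidermal (0.84, 0.306) or adipocyte markers (1.15, 0.229) as a covariate.

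The partner chains of Il4ra were higher too. Il13ra1, its partner in the receptor of non-blood cells, averaged 54.1 ± 8.29 TPM in KI and 35.0 ± 6.13 TPM in WT (0.72 ± 0.15, edgeR adjusted p = 0.00678). Il2rg, the common gamma chain of the lymphocyte form, averaged 13.1 TPM in KI and 7.12 TPM in WT (0.98 ± 0.20, edgeR adjusted p = 0.00586). In the EAS42 libraries alone neither was called, Il13ra1 at 0.40 (edgeR adjusted p = 0.0981) and Il2rg at 0.69 (adjusted p = 0.0833). The ratio of Il4ra to Il13ra1 overlapped, at 0.451 to 0.762 in KI and 0.217 to 0.891 in WT. Reads of the ligands were few: Il4 had 4 counts over the 5 KI libraries and 19 over the 5 WT libraries, and Il13 had 19 in KI and 10 in WT, all below the filter on low counts.

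Il22ra1, a chain of the IL-22 receptor (chr4:135728172-135752140, plus strand, ENSMUSG00000037157), did not pass the test. Its TPM was 4.27, 5.12, 3.56, 5.84 and 3.14 in KI libraries 1 to 5, against 3.89, 3.66, 4.61, 5.56 and 5.04 in WT libraries 1 to 5. The ranges overlapped almost wholly, and the change was 0.03 ± 0.20, with a 95% interval of -0.41 to 0.47 (edgeR adjusted p = 0.921). Within titles it was 0.41 in EAS37 and -0.35 in EAS42, a difference of -0.76 ± 0.35 that did not pass (edgeR adjusted p = 0.292). Its partner in the IL-22 receptor, Il10rb, the chain shared with the IL-10 receptor, was higher in KI skin, at 24.1 ± 1.80 TPM in KI and 17.3 ± 1.91 TPM in WT (SD, n = 5 each; 0.59 ± 0.10, edgeR adjusted p = 0.00247). The ratio of Il22ra1 to Il10rb was 0.139 to 0.231 in KI and 0.210 to 0.323 in WT.

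Il20ra encodes a receptor chain for IL-19, IL-20 and IL-24 (chr10:19712570-19760053, plus strand, ENSMUSG00000020007; a predicted gene, Gm33332, overlaps it on the other strand). It stood at 6.48, 10.6, 12.7, 13.3 and 23.1 TPM in KI libraries 1 to 5, against 20.6, 13.8, 15.6, 25.9 and 27.4 TPM in WT libraries 1 to 5. Of the 5 KI libraries, 4 lay below the lowest WT library and KI 5 lay inside the WT range. The change was -0.59 ± 0.29 (95% interval -1.23 to 0.05; edgeR adjusted p = 0.144), so the gene was not called. The values within titles were -0.78 in EAS37 (edgeR adjusted p = 0.0550) and -0.71 in EAS42 (adjusted p = 0.101). It was called lower without KI 5 (-0.85, edgeR adjusted p = 0.0232), in the EAS37 libraries alone (-0.76, adjusted p = 0.0417) and with title prefix as a block (-0.75, adjusted p = 0.00983). Its partner Il20rb averaged 83.5 ± 6.44 TPM in KI and 106.6 ± 20.7 TPM in WT and was not called (-0.28, edgeR adjusted p = 0.141), although it passed without WT 2 (-0.39, adjusted p = 0.0157) and in EAS42 alone (-0.58, adjusted p = 0.0121).

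**Figure D2:**
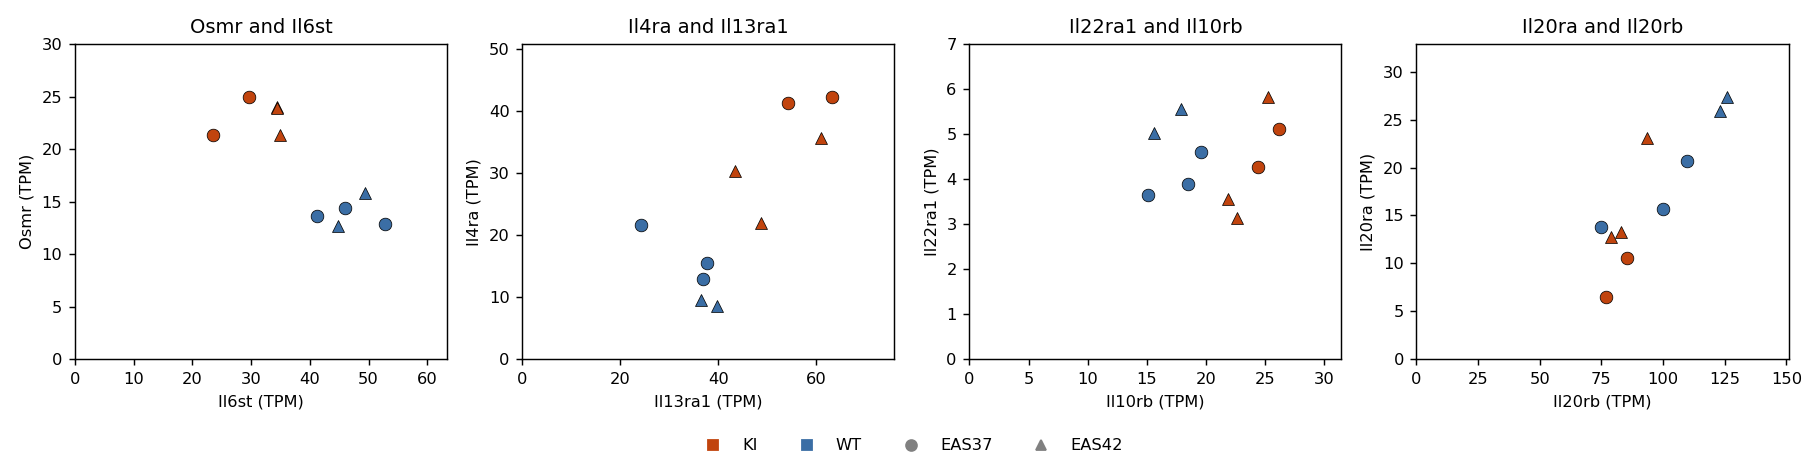
TPM of a receptor chain (y axis) against a partner chain (x axis), 1 point per library, for Osmr with Il6st, Il4ra with Il13ra1, Il22ra1 with Il10rb and Il20ra with Il20rb. In the first panel the KI points lie at high Osmr and low Il6st and the WT points at low Osmr and high Il6st, while in the Il20ra panel the genotypes mix.

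Of the transcription factors, Stat3 RNA was higher in KI skin and Stat5a RNA was not called. Stat3 is the main STAT downstream of gp130 and of the IL-20 and IL-22 receptors (chr11:100885098-100939540, minus strand, ENSMUSG00000004040). Its level was 94.6, 91.6, 86.9, 99.4 and 77.1 TPM in KI libraries 1 to 5, against 69.5, 66.8, 64.5, 56.5 and 58.1 TPM in WT libraries 1 to 5. No KI library reached down to the WT range, and the means were 89.9 ± 8.50 TPM in KI and 63.1 ± 5.62 TPM in WT (SD, n = 5 each). The change was 0.59 ± 0.10, or 1.51-fold (95% interval 0.36 to 0.82; edgeR adjusted p = 0.00311), with 0.71 in EAS37 and 0.56 in EAS42. Stat3 followed the mean log2 CPM of 8 epidermal markers within genotypes (r = 0.75 over 10 libraries), which was 9.69 to 10.40 in KI and 9.59 to 9.69 in WT, a slight overlap; their summed TPM was 11602 to 19605 in KI and 9569 to 11368 in WT. With that mean as a covariate the Stat3 change was 0.33 and was not called (edgeR adjusted p = 0.198). Nor was it called with the level of muscle (0.41, edgeR adjusted p = 0.124) or adipocyte markers (0.55, 0.141) as a covariate. In TPM, KI 4 stood above KI 1 and KI 2. On the log2 CPM scale, Stat3 and the epidermal mean were both higher in every EAS37 than any EAS42 library of the same genotype. Their r therefore cannot be told apart from title prefix.

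Stat5a, which acts downstream of prolactin, growth hormone and several interleukin receptors, lies beside Stat3 (chr11:100859351-100885169, plus strand, ENSMUSG00000004043). The genes overlap at their 3′ ends on opposite strands, and whether strand was used in counting is not given in the sources used here. Stat5a was at 10.4, 9.36, 12.5, 12.1 and 11.9 TPM in KI libraries 1 to 5, against 12.0, 9.93, 10.7, 13.1 and 17.4 TPM in WT libraries 1 to 5. Only WT 5 stood clear of the KI range by more than 1 TPM. The change was -0.13 ± 0.15 (95% interval -0.45 to 0.19; edgeR adjusted p = 0.526), at 0.01 in EAS37 and -0.36 in EAS42. The TPM ratio of Stat3 to Stat5a was 6.46 to 9.79 in KI and 3.33 to 6.73 in WT, overlapping slightly.

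Socs3 rose and Socs2 fell among the feedback genes, and Socs1 was not called. Socs3, the inhibitor that docks on gp130 and is a classical STAT3 target (chr11:117966079-117970047, minus strand, ENSMUSG00000053113), stood at 33.6, 34.9, 30.7, 31.2 and 30.1 TPM in KI libraries 1 to 5, against 18.5, 15.4, 21.9, 31.6 and 24.9 TPM in WT libraries 1 to 5. KI libraries were tightly grouped, at 32.1 ± 2.05 TPM, and WT libraries were spread, at 22.5 ± 6.24 TPM (SD, n = 5 each), the EAS42 libraries WT 4 and 5 being the highest of the WT. The change was 0.63 ± 0.18 (95% interval 0.23 to 1.02; edgeR adjusted p = 0.0234). It was 1.10 ± 0.15 in EAS37 (adjusted p = 5.45e-04) and 0.15 ± 0.15 in EAS42 (adjusted p = 0.540). The difference between titles, -0.95 ± 0.21, had an unadjusted p of 9.53e-04 and an edgeR adjusted p of 0.0661, so it did not pass; 0.866% of all tested genes passed that interaction test and 0 of the 10 genes did. Without WT 3, or with no filter on low counts, the Socs3 difference passed (adjusted p = 0.0415 and 0.0149). The call over all 10 libraries was lost on leaving out KI 1 (adjusted p = 0.0649), KI 2 (0.0532), WT 1 (0.0549) or WT 3 (0.0544).

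Socs2, best known as the inhibitor of growth hormone signalling through STAT5 (chr10:95385362-95417180, minus strand, ENSMUSG00000020027), was lower in KI skin. Its TPM was 3.02, 4.61, 6.11, 6.64 and 6.48 in KI libraries 1 to 5, against 7.59, 6.32, 6.68, 8.63 and 8.77 in WT libraries 1 to 5. The ranges overlapped slightly in TPM and did not overlap in CPM, where KI libraries had 5.40 to 9.27 and WT libraries 9.80 to 13.6. The change was -0.52 ± 0.17 (95% interval -0.89 to -0.15; edgeR adjusted p = 0.0371), with -0.67 in EAS37 and -0.56 in EAS42. The call was close to its threshold: it was lost without KI 1, KI 2, WT 1, WT 4 or WT 5 (edgeR adjusted p from 0.0625 to 0.0857) and with a correction for effective transcript length (-0.45, adjusted p = 0.0929). In the EAS37 libraries alone Socs2 was not called either (-0.65, edgeR adjusted p = 0.0544).

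Socs1, the inhibitor that acts on JAK kinases downstream of interferon gamma and IL-4 (chr16:10782240-10785536, minus strand, ENSMUSG00000038037), was the lowest of the 10 genes. It had 2.22, 2.82, 3.38, 2.72 and 3.34 TPM in KI libraries 1 to 5, against 2.52, 1.42, 2.45, 3.19 and 2.23 TPM in WT libraries 1 to 5. The ranges overlapped and the change, 0.38 ± 0.20, was not called (95% interval -0.06 to 0.81; edgeR adjusted p = 0.166), with 0.45 in EAS37 and 0.21 in EAS42. Per Stat3 transcript, Socs3 stood at 0.314 to 0.390 in KI and 0.230 to 0.560 in WT, so its ratio to Stat3 overlapped although both genes were higher in KI skin.

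**Figure D3:**
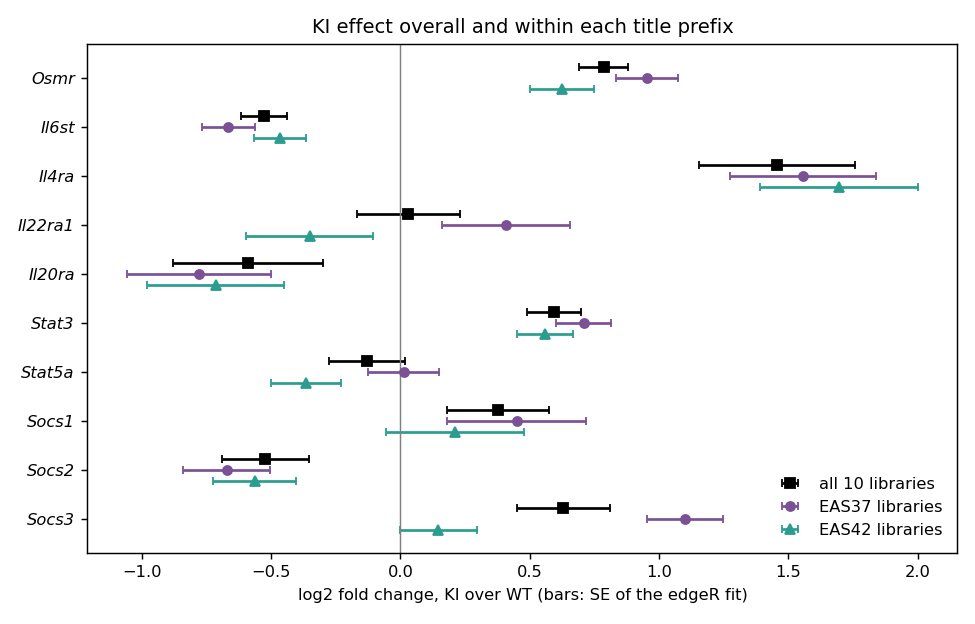
Log2 fold change of KI over WT (x axis, with SE bars) for each of the 10 genes over all libraries and within the EAS37 and EAS42 titles. The values of Osmr, Il4ra, Stat3, Il6st and Socs2 keep their side of 0 in both titles, those of Il22ra1 and Stat5a do not, and Socs3 stands at 1.10 in EAS37 and 0.15 in EAS42.

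In mean TPM the order of the 10 genes in KI skin was Stat3, Il4ra, Socs3, Il6st, Osmr, Il20ra, Stat5a, Socs2, Il22ra1 and Socs1. Neighbouring ranges in KI overlapped except between Stat3 and Il4ra and between Stat5a and Socs2. In WT skin the order was Stat3, Il6st, Socs3, Il20ra, Osmr, Il4ra, Stat5a, Socs2, Il22ra1 and Socs1, where the ranges from Socs3 down to Stat5a overlapped between neighbours and the others did not. Il4ra ranked 2 in KI and 6 in WT, and Il6st ranked 4 in KI and 2 in WT.

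After removing the genotype means, some pairs of the 10 genes varied together or in opposition from library to library, and other pairs did not. These correlations of log2 normalised counts are descriptions over 10 libraries that share depth scaling and tissue makeup. Stat3 and Il4ra ran together (r = 0.85), and Il20ra ran against both, at r = -0.92 with Stat3 and -0.93 with Il4ra. Socs2 ran with Il20ra (r = 0.86) and against Stat3 (r = -0.81). Socs3, in contrast, had an r of -0.01 with Stat3. Title prefix was not removed from any of these correlations. In log2 CPM, Stat3 and Il4ra were higher, and Il20ra and Socs2 lower, in every EAS37 than any EAS42 library of the same genotype. The r values among these genes therefore cannot be told apart from a difference between prefixes. Among 15673 genes with a mean of at least 1 CPM, those most like Stat3 were Cdc42ep4 (r = 0.977), Cap1 (0.964) and Pfn1 (0.963). Those most like Socs3 were Rhbdf2 (0.981), Grk2 (0.977) and Ggct (0.973). Osmr was most like 2500002B13Rik (0.921), Zfp873 (0.909) and Ocln (0.908), and Socs2 most like Pmel (0.959), Adk (0.949) and Nrgn (0.946).

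The other genes of the pathway were counted by role, in lists of 123 genes of which 93 passed the filter on low counts. Of these 93, 31 were higher, 11 were lower and 51 did not pass, with a median change of 0.21 against -0.01 over all tested genes. Of all tested genes 15.6% were higher and 15.3% lower, the shares to set beside the counts of each list. The number of pathway genes lower was 7 without KI 1, KI 2, KI 4, WT 1 or WT 4. Among ligands, 10 of 30 passed the filter, and 4 were higher and 1 lower. Clcf1, a gp130 ligand of the ciliary neurotrophic factor family, averaged 15.9 ± 5.26 TPM in KI and 6.60 ± 0.791 TPM in WT (SD, n = 5 each; 1.33 ± 0.21, edgeR adjusted p = 0.00193); it overlaps the annotated genes AC109138.7 and Gm26115, so reads could be shared. Lif, another gp130 ligand, averaged 2.37 ± 0.455 TPM in KI and 1.16 ± 0.681 TPM in WT (1.13 ± 0.24, edgeR adjusted p = 0.00708), and was not called in EAS42 alone (0.81, adjusted p = 0.117). Il11 and Il7 (higher) and Lep (lower) passed with edgeR adjusted p from 0.0382 to 0.0452, but Il7 lost its call without KI 1, 3, 4 or 5 or WT 1, 2 or 4 (edgeR adjusted p from 0.0590 to 0.0818). Il11 lost its call without any 1 library other than KI 5 (adjusted p from 0.0571 to 0.106), and Lep without any 1 library other than WT 4 or WT 5 (adjusted p from 0.0509 to 0.0781).

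The ligands of the IL-20 receptors, Il19, Il20 and Il24, were all below the filter, as were Il6 and Osm. Il24 had 34, 24, 7, 34 and 4 counts in KI libraries 1 to 5, against 0, 0, 1, 0 and 0 counts in WT libraries 1 to 5. Summed, that is 103 counts in KI and 1 in WT, a depth-corrected ratio of 111 with a 95% counting interval of 19.5 to 4426. Il19 had 39 counts in KI and 5 in WT (ratio 8.41, interval 3.31 to 27.3), and Il20 had 6 in KI and 0 in WT. Il6 had 36 in KI and 8 in WT (ratio 4.85, interval 2.22 to 12.1), and Osm had 24 in KI and 16 in WT (ratio 1.62, interval 0.824 to 3.26). Il22 had 0 counts in all 10 libraries. These intervals cover counting error over summed libraries and not the spread between mice, so no call is made from them.

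Among 30 other receptor chains tested, 10 were higher, 4 lower and 16 did not pass, where 15.6% of all genes were higher and 15.3% lower. Those with the smallest p were Il2rb (1.12, edgeR adjusted p = 0.00130), a chain of the IL-2 and IL-15 receptors, Il10ra (1.07, 0.00172), Il10rb, Il21r (3.32, 0.00316) and Il13ra2 (1.47, 0.00348), the decoy-type IL-13 receptor. Il21r had 80 counts over the 5 KI libraries and 8 over the 5 WT libraries. It passed the filter on low counts through its KI libraries, and its fold change rests on WT counts near 0. Il2rb, Il10ra and Il21r are expressed mainly by leukocytes, whose T cell markers were called higher for 5 of 7 genes; that list's part was not tested. Of 9 kinases and other STATs, 0 were higher and 1 was lower, Stat5b, at 13.5 TPM in KI and 19.8 TPM in WT (-0.47 ± 0.12, edgeR adjusted p = 0.0152), not called in EAS42 alone (-0.48, adjusted p = 0.0646). Jak1 (-0.05), Tyk2 (-0.02) and Stat6 (0.16) were among those that did not pass.

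Other feedback genes gave 3 higher, 1 lower and 10 not passing of 14, a share called near the 30.9% of all genes. Socs5, a SOCS relative linked to IL-4 and EGF receptor signalling, averaged 28.8 ± 6.90 TPM in KI and 13.6 ± 2.12 TPM in WT (SD, n = 5 each; 1.19 ± 0.19, edgeR adjusted p = 0.00241). Socs7 was lower (-0.51 ± 0.10, edgeR adjusted p = 0.00468), though not called in EAS42 alone (-0.51, adjusted p = 0.0552). The phosphatase genes Ptpn1 (0.46) and Ptpn2 (0.29) passed with edgeR adjusted p of 0.0239 and 0.0359. Ptpn1 lost its call without KI 1, KI 2, WT 1, WT 3 or WT 4 (adjusted p from 0.0522 to 0.0570), and Ptpn2 without KI 1, KI 2 or any 1 WT library (from 0.0523 to 0.0866). Across the SOCS family, Socs3 and Socs5 were higher, Socs2 and Socs7 lower, and Socs1, Socs4 (0.21), Socs6 (-0.04) and Cish (-0.19) not called, Socs2 losing its call with the length correction given above.

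Of 23 genes tested among those described as STAT3 targets, 13 were higher, 1 lower and 9 did not pass, with a median of 0.63. Over all tested genes 15.6% were higher and 15.3% lower. Timp1, a metalloprotease inhibitor, rose by 3.78 ± 0.22 (edgeR adjusted p = 6.27e-06), and Lcn2, an iron-siderophore binding protein, by 4.63 ± 0.62 (adjusted p = 0.00114). The transcription regulators Cebpb (1.18 ± 0.13, edgeR adjusted p = 3.14e-04) and Bcl3 (2.32 ± 0.26, adjusted p = 4.00e-04) and the adhesion molecule Icam1 (0.72 ± 0.10, adjusted p = 9.94e-04) were also higher. Icam1, Lcn2 and Bcl3 are also known NF-kappaB targets, so the list is not specific to STAT3. Of 7 genes tested among those described as STAT6 targets, 1 was higher and 3 lower, with a median of -0.75, beside the higher Il4ra. Retnla, an IL-4 and IL-13 response gene of macrophages and adipose tissue, was lower (-1.85 ± 0.40, edgeR adjusted p = 0.00816) and the chemokine Ccl22 was higher (1.26 ± 0.32, adjusted p = 0.0137). Retnla was not called in EAS37 alone (-2.68, edgeR adjusted p = 0.0519) and Ccl22 not in EAS42 alone (0.86, adjusted p = 0.116). The eotaxin genes Ccl11 (-0.75, edgeR adjusted p = 0.0310) and Ccl24 (-1.15, adjusted p = 0.0460) were lower. Ccl11 lost its call without KI 1, KI 2, WT 1, WT 3 or WT 4 (adjusted p from 0.0502 to 0.0763), and Ccl24 without KI 1, 2, 4 or 5 or WT 1, 3, 4 or 5 (from 0.0634 to 0.109). The summed adipocyte markers were lower in the same libraries, with 5 of 7 called, and Ccl11 stood at 0.02 with their mean log2 CPM as a covariate; its part was not otherwise tested.

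**Figure D4:**
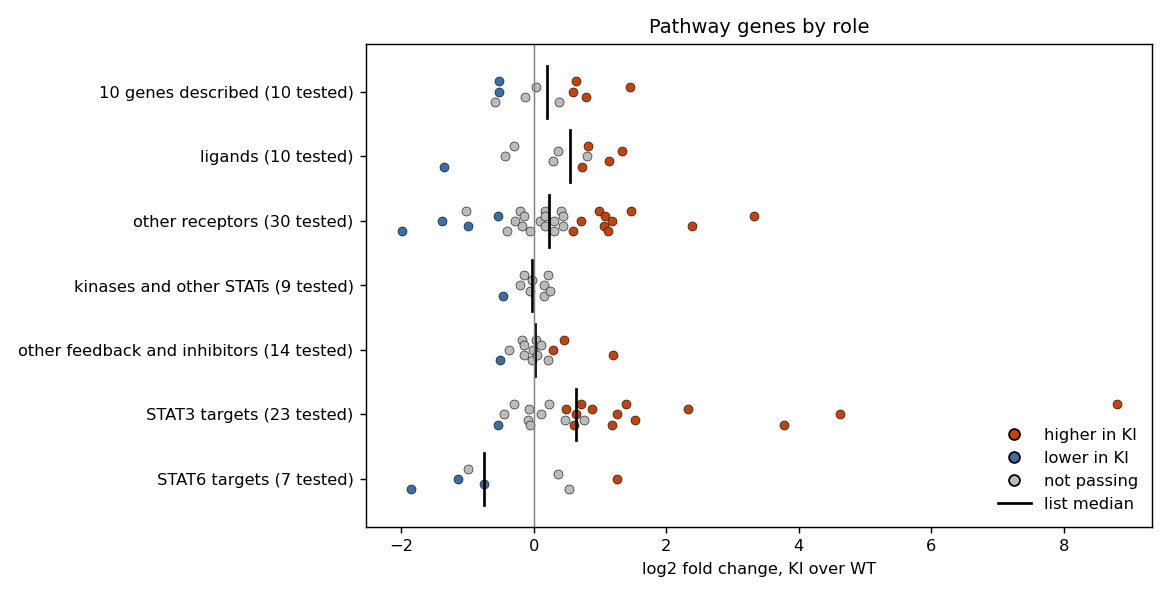
Log2 fold change of KI over WT (x axis) for each tested gene of the 10 genes and of the 6 pathway lists, coloured by call, with a line at each list's median. The median of the STAT3 target list is 0.63 and that of the STAT6 target list -0.75, and the kinases and other STATs cluster around -0.02.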

How the data were processed

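Gene tables from 10 skin libraries (5 KI, 5 WT) were used as the authors deposited them. Per the file headers they hold RSEM expected counts, effective lengths, TPM and FPKM per Ensembl gene; the deposited FPKM values were not used. STAR 2.5.2b, Picard 2.8.1, FastQC, featureCounts, DESeq2 1.14.1 and build GRCm38 are listed in the submitters' processing notes; no source used here states RSEM's version or its strand option. Deposited expected counts were rounded (10.4 to 12.2% of values were fractional) and tested with edgeR 4.0.16 in R 4.3.3 (quasi-likelihood, robust, TMM scaling, filterByExpr with a minimum count of 10 and total of 15, Benjamini-Hochberg over 17321 genes). The SE is the log2 fold change over the root of F. Deposited TPM served for levels, ranges and ratios between genes; the median log2 ratio of mean TPM was -0.08, against -0.01 in the fit. Title prefix was tested as an interaction. Names and coordinates came from GENCODE (55141 of 55487 identifiers named; the 346 without a name held 0.0507% of counts). Sequences came from RefSeq.

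The 10 genes and all lists were chosen with earlier results of these data known. Up to 5 called genes per pathway list with the smallest p are named, with the low-count ligands, the 3 genes most like each of Stat3, Socs3, Osmr and Socs2, and known partner chains of the receptors, outside that rule. Alternatives covered DESeq2 1.42.0, limma 3.58.1, filters, scaling, length offsets, covariates, title prefix and leaving out libraries. The analysis was tested on simulated data. P-values set the genotype difference against the spread between mice within a genotype. In the main fit that spread includes any difference between title prefixes. Counting intervals cover counting error only. At this depth 30 of 123 pathway genes fell below the filter.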

Additional observations from a re-analysis of the deposited data

Results flagged for a closer look

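Over 34 genes named with values in every library (68 groups of 5), 2 groups held a library that stood far from the other 4, and neither belongs to the 10 genes described. Chance alone flags about 1 in 20 groups. Lep stood at 25.7 TPM in WT 3, with the nearest WT library at 9.81 TPM, a gap of 0.776 of the group's range. Lcn2 stood at 6.42 TPM in WT 2, with the nearest WT library at 2.41 TPM, a gap of 0.733 of the range.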

How the results depend on the processing

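Of the 10 genes, 4 were called higher and 2 lower, with 2699 and 2652 of all genes and 31 and 11 other pathway genes. The skeletal muscle covariate gave 1 and 0 of the 10 genes, 306 and 148 of all genes, and 9 and 0 pathway genes. The epidermis covariate gave 1 and 0, 239 and 70, and 8 and 0. The adipocyte covariate gave 0 and 0, 270 and 95, and 7 and 1. These levels (mean log2 CPM) overlap only slightly between genotypes, so such fits cannot tell genotype and tissue makeup apart. With no filter 7 pathway genes were lower and 1 of the 10 genes (Socs3, against 0) passed the interaction test. Length offsets left 1 of the 10 lower. EAS42 alone called 1192 genes higher and 1296 lower. Leaving out 1 library gave 3 to 4 of the 10 higher, 1 to 3 lower, 27 to 32 pathway genes higher and 7 to 13 lower, and 0 to 1 in the interaction test; over all genes it gave 1936 to 3038 higher and 1799 to 2812 lower. Removing KI 2 and WT 2 together, chosen after seeing the data, left 1 of the 10 lower and 1789 genes higher.

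Signs turned only for genes near 0 or not called, plus Ccl11. Stat5a became 0.087 (muscle covariate), 0.039 (epidermis) and 0.035 (EAS37 alone), and ranged from -0.21 to 0.020 with 1 library left out. Il22ra1 became -0.32 (muscle), -0.39 (epidermis), -0.36 (EAS42 alone) and -0.10 (without KI 2 and WT 2), and ranged from -0.049 to 0.16. Il20ra became 0.024 with the epidermis covariate, Ccl11 0.018 with the adipocyte covariate and Lifr -0.060 in EAS37 alone. Title differences ranged over both signs for Socs1 (-0.46 to 0.042), Socs2 (-0.13 to 0.36), Il4ra (-0.17 to 0.34) and Il20ra (-0.28 to 0.34). The cause was not tested. No paired analysis was possible because the labels give no replicate number that marks a shared litter, batch or day across genotypes; title prefix as a block gave 4 higher and 3 lower of the 10 genes.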
